A study of Mus musculus with 18 samples.

Results

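The Hox cluster genes were the 39 rows of the deposited gene table whose symbol was Hox, a cluster letter from a to d and a number, out of 51290 genes in all. They fell into 11 genes of the HoxA cluster, 10 of HoxB, 9 of HoxC and 9 of HoxD. Hox genes encode homeodomain transcription factors that give segments along the body axis their identity. Within a cluster, genes with low numbers are used towards the head and genes with high numbers towards the tail, an order known as collinearity. Cranial neural crest that migrates into the front of the face is known for lacking most Hox transcripts, whereas neural crest of the neck and trunk carries them, and Polycomb and trithorax complexes are known to keep each cluster silent or active.

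RNA of 18 mouse samples was sequenced after poly(A) selection, in 3 groups of 6. The malignant peripheral nerve sheath tumours (MPNST) came from 6 mice carrying Nf1 flox/flox, Arf flox/flox and PostnCre+, and the labels name no body site for them. The plexiform neurofibromas, benign tumours within a nerve, were trigeminal nerves of the genotype Nf1 flox/flox with PostnCre+. The normal nerves were trigeminal nerves with Nf1 flox/flox and PostnCre-. Floxed Nf1 was therefore shared by all 3 groups, floxed Arf was a feature of the MPNST alone, and Cre followed the promoter of Postn, which neural crest derived and mesenchymal cells use. Nf1 encodes neurofibromin, a brake on RAS, and Arf is one product of the Cdkn2a locus. The labels also take the neurofibroma and nerve samples from an earlier series. Malignancy, the Arf allele, the place in the body and the series of origin therefore cannot be told apart in any comparison with MPNST. In bulk RNA, fewer cells of a type and less RNA per cell cannot be told apart either. The labels do not say that neurofibroma and nerve samples came from separate animals, so p-values measure the spread between these samples.

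Libraries held between 13886399 and 23652959 estimated counts in MPNST, between 15307987 and 20056513 in neurofibroma, and between 14303986 and 20335697 in nerve. Levels are CPM, the count scaled to a fixed library total, which is not corrected for gene length, so they are compared between samples and not between genes. Nf1 lay between 28.1 and 122.8 CPM in MPNST, between 66.7 and 91.3 in neurofibroma and between 82.4 and 160.7 in nerve. Cdkn2a lay between 0.314 and 692 CPM in MPNST, between 3.54 and 8.58 in neurofibroma and between 0.280 and 3.01 in nerve, and gene counts do not show which exons the reads covered. Some libraries stood apart. In MPNST 2 the salivary gland transcript Bpifa2 reached 235219 CPM, which left less of the library for every other gene; MPNST 6 held the sympathoadrenal transcript Th at 1736 CPM. The summed 4 skeletal muscle markers reached 30275 CPM in MPNST 3. MPNST 6 also held the 5 pancreatic markers at 2643 CPM, and MPNST 1 held the 4 B and plasma cell markers at 534 CPM. In nerve 6 the summed 5 central glia markers reached 786 CPM. The 3 adipocyte markers stood at 366 CPM in neurofibroma 1, 704 CPM in MPNST 1 and 538 CPM in MPNST 5. MPNST 5 also held the 5 salivary gland markers at 220 CPM. The 4 skeletal muscle markers reached 1166 CPM in neurofibroma 1 and 295 CPM in nerve 3. The 5 Schwann cell markers summed to between 39.4 and 868 CPM in MPNST, between 5853 and 10456 CPM in neurofibroma and between 2373 and 5973 CPM in nerve. The Schwann lineage gene Sox10 was present in each MPNST, at 5.32 CPM in MPNST 4 and at 22.8 to 248 CPM in the others.

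The promoter windows of Hoxd1, Hoxd4 and Hoxb4 are shown because these genes, at most 2 of a cluster, had the smallest p-values of those called after a filter on low counts, and they moved in both directions. Each window runs from 250 bases before to 50 bases from the annotated start, is taken from RefSeq on the build GRCm38.p6 and is printed along the gene's own strand, with every CpG in capitals. The Hoxd1 window lies at chr2:74762730-74763029 on the plus strand, the Hoxd4 window at chr2:74721728-74722027 on the plus strand and the Hoxb4 window at chr11:96318017-96318316 on the plus strand.
Hoxd1: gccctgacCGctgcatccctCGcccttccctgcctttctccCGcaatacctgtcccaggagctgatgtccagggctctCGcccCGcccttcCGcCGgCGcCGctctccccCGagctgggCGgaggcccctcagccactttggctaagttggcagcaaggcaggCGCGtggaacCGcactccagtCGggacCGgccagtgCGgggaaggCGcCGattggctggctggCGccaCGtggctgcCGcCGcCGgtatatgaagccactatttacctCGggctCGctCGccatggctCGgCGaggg
Hoxd4: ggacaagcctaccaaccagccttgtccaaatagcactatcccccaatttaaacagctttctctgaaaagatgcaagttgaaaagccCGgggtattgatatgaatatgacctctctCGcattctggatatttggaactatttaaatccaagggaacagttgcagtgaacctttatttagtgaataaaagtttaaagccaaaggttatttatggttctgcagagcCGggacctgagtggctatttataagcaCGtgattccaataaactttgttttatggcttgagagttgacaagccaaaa
Hoxb4: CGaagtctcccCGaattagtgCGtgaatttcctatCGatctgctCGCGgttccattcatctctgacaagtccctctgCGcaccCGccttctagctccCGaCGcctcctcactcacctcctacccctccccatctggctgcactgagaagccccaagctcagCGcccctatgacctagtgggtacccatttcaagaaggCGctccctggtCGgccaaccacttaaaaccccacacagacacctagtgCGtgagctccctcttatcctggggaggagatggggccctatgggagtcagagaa
The Hoxd1 window held 29 CpGs, an observed over expected ratio of 0.805. The Hoxb4 window held 14 CpGs, with a ratio of 0.593, and the Hoxd4 window held 4 CpGs, with a ratio of 0.339. Across the 24 windows found for 22 of the 39 Hox genes the median was 14.5 CpGs, with a ratio of 0.626, against a median of 7 CpGs and a ratio of 0.384 over 32851 windows of 27025 genes. Of these 3 windows that of Hoxd1 was thus the densest in CpGs and that of Hoxd4 the sparsest. Windows of genes called higher in MPNST without the filter ranged from 4 CpGs (Hoxa9, ratio 0.280) to 29 CpGs (Hoxa5, ratio 1.02). A link of CpG content with direction of change was not tested. A motif known to bind Hox proteins with their Pbx partners (TGATTNAT) was searched on both strands and stood in 2 Hox windows, 8.33% of them, against 3.22% of all windows. The TATA motif (TATAAA) stood in 4 Hox windows, 16.7%, against 13.6% of all windows, and Hoxd4 held it on the opposite strand. The DR5 motif of retinoic acid receptors (AGGTCA, a spacer of 5 bases, AGGTCA) stood in 0 Hox windows and in 0.00913% of all windows.

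The groups differed in how many Hox genes were present. With a gene counted as detected at 10 or more counts in a library, 26 of the 39 were detected in at least 1 MPNST library, 4 in at least 1 neurofibroma and 5 in at least 1 nerve. The 26 in MPNST were spread over all clusters, with 7 in HoxA, 8 in HoxB, 6 in HoxC and 5 in HoxD. All those detected in neurofibroma and nerve lay in HoxD, where Hoxd1, Hoxd4, Hoxd8 and Hoxd9 reached 10 counts in both groups and Hoxd3 did so in nerve. Of the 30 genes of HoxA, HoxB and HoxC, the highest count in any neurofibroma or nerve library was 9. In all, 22 genes were detected in MPNST and in neither other group, 4 in MPNST and another group, 1 (Hoxd1) outside MPNST, and 12 in no library. These counts describe the libraries and were not tested. The same counts were not taken over all genes, so they do not show whether Hox genes differ from other genes in this.

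The MPNST libraries were unlike each other. They held 23, 4, 19, 10, 25 and 11 detected Hox genes in MPNST 1 to 6, against 2 to 4 per neurofibroma library and 2 to 5 per nerve library. The summed Hox level was 160.8, 3.93, 108.3, 71.1, 167.0 and 15.3 CPM in MPNST 1 to 6, against 22.1 to 32.7 CPM in neurofibroma and 17.8 to 42.7 CPM in nerve. On the TMM-scaled library totals, where MPNST 2 differed most from the plain CPM, the sums were 146.8, 9.01, 115.9, 63.2, 152.5 and 14.06 CPM in MPNST 1 to 6, against 21.7 to 31.2 CPM in neurofibroma and 16.4 to 42.3 CPM in nerve. MPNST 1, 3 and 5 thus carried Hox transcripts of every cluster, and MPNST 4 carried mostly HoxD and some HoxB. MPNST 6 had detected genes in every cluster too, 1 in HoxA, 6 in HoxB, 2 in HoxC and 2 in HoxD. MPNST 2 and 6 lay below every neurofibroma and nerve library in their summed level on both scales. Most of the sum outside MPNST was Hoxd1. Its mean was 18.4 CPM of a mean sum of 24.8 CPM in neurofibroma and 25.0 of 33.4 CPM in nerve, against 0.0377 CPM in MPNST. HoxD made up 80.6% of Hox counts in MPNST 4 and between 18.7% and 51.6% in the other MPNST, against 94.8% to 98.2% in neurofibroma and 94.1% to 99.8% in nerve. HoxA summed to 18.9, 0.296, 47.7, 0.859, 21.0 and 2.25 CPM in MPNST 1 to 6, against 0.115 to 0.605 CPM in neurofibroma and 0 to 0.561 CPM in nerve. HoxC summed to 55.7, 0.0846, 13.97, 0.301, 35.0 and 2.15 CPM in MPNST 1 to 6, against 0 to 0.249 CPM in neurofibroma and 0 to 0.295 CPM in nerve. The libraries with low sums were those low in fibroblast markers. The 4 fibroblast markers summed to 6515, 322, 5307, 2750, 5060 and 303 CPM in MPNST 1 to 6, against 938 to 1952 CPM in neurofibroma and 120 to 859 CPM in nerve, with none of them at 0 in a whole group. Of the 4, 2 were called higher in MPNST against neurofibroma, beside 25.3% of all genes, and 3 against nerve, beside 27.6%. The part of fibroblasts in the Hox levels was not tested. The 3 adipocyte markers summed to 704 CPM in MPNST 1 and 538 CPM in MPNST 5, the libraries with the highest Hox sums. In the other MPNST they reached at most 20.3 CPM, and in neurofibroma 1 they reached 366 CPM. The part of adipocytes was not tested either.

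**Figure D1:**
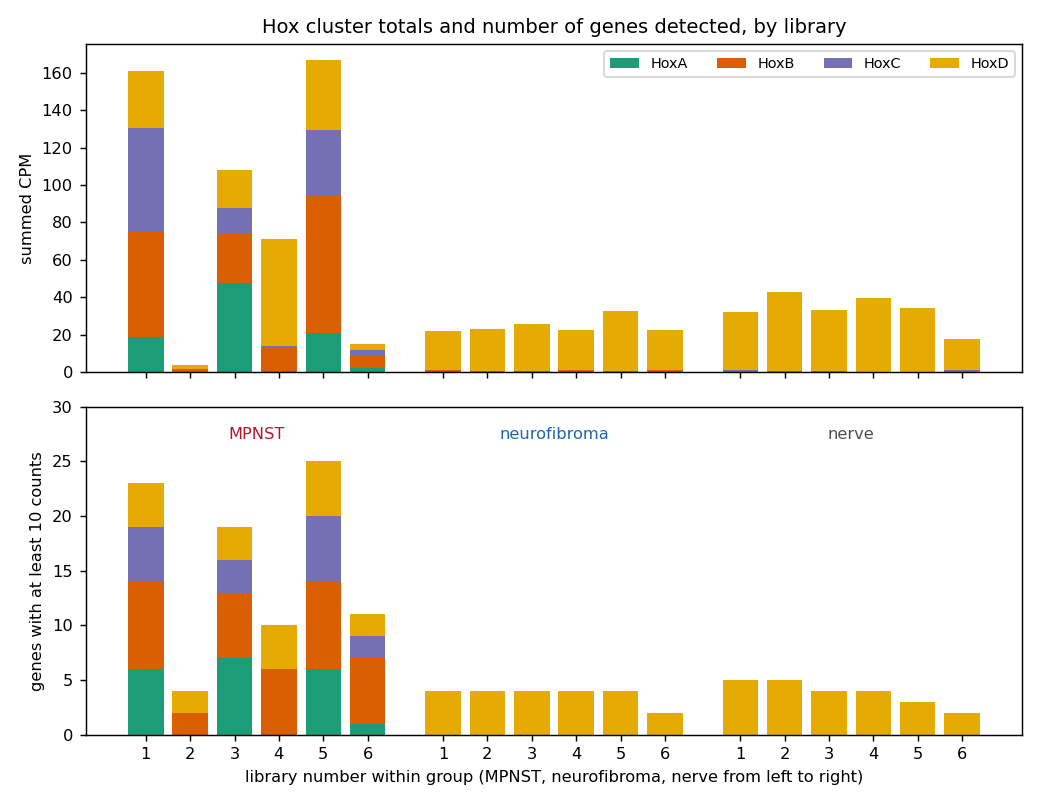
Stacked bars per library show the summed CPM of each Hox cluster (top) and the number of Hox genes with at least 10 counts (bottom), with MPNST, neurofibroma and nerve from left to right. MPNST 1, 3 and 5 reach 108.3 to 167.0 CPM with all 4 clusters, while the other 2 groups stay at or below 42.7 CPM and show HoxD.

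**Figure D2:**
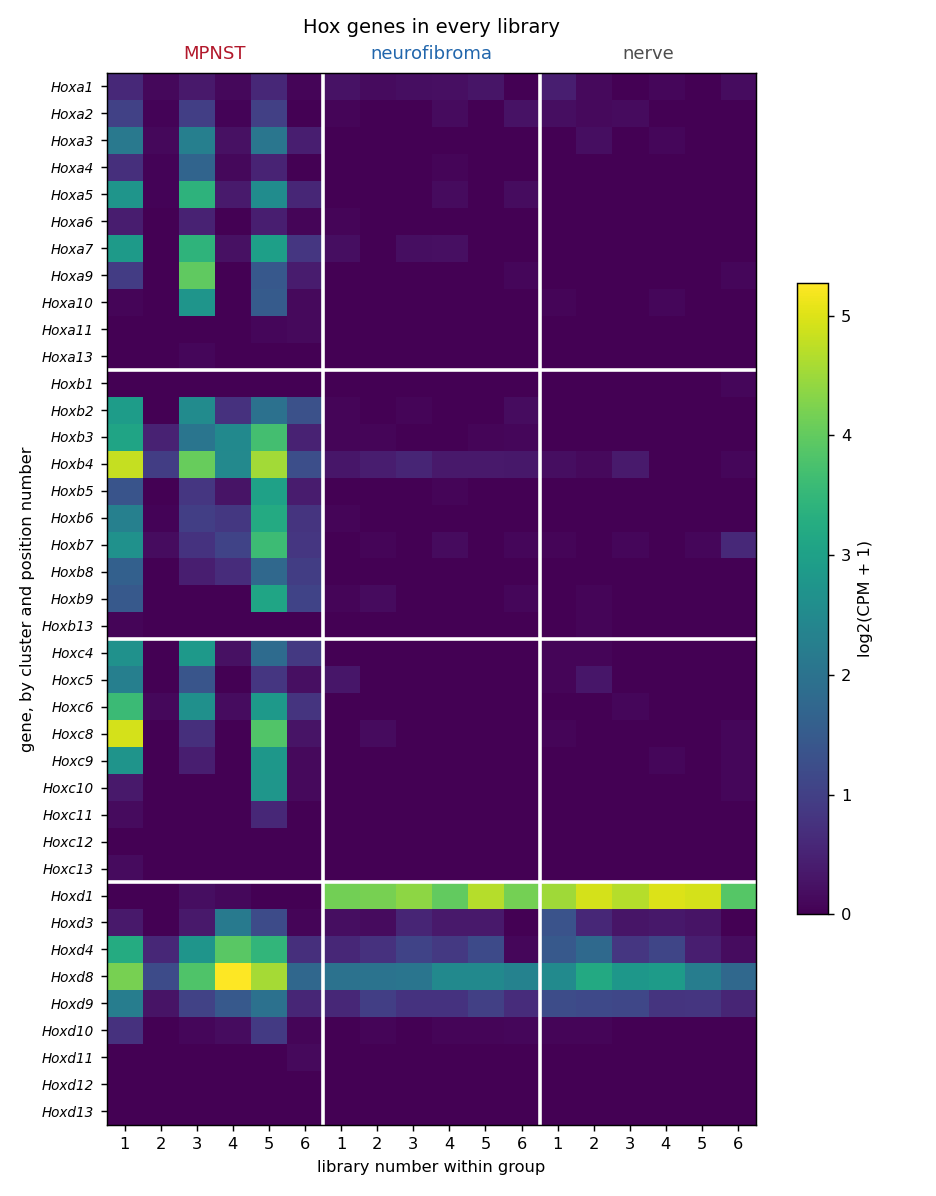
Each row is a Hox gene by cluster and number, each column a library, and the colour is log2(CPM + 1), which is comparable along a row and not between genes. HoxA, HoxB and HoxC rows are dark in all neurofibroma and nerve libraries, and the Hoxd1 row is dark in all MPNST.

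Hoxd1, the lowest-numbered gene of HoxD and known in mouse for its use in pain-sensing neurons, was the only Hox gene called lower in MPNST in these fits. It had 0, 0, 2, 2, 0 and 0 counts in MPNST 1 to 6, against 338, 297, 385, 273, 425 and 259 counts in neurofibroma 1 to 6 and 432, 599, 414, 455, 421 and 210 counts in nerve 1 to 6. Every MPNST library lay below every neurofibroma and nerve library. Hoxd1 averaged 0.0377 ± 0.0609 CPM in MPNST, against 18.4 ± 3.47 CPM in neurofibroma and 25.0 ± 6.45 CPM in nerve (SD, n = 6 each). Its log2 change was -8.54 ± 0.74 (SE) in MPNST against neurofibroma (adjusted p = 1.12e-05, edgeR's quasi-likelihood test with Benjamini-Hochberg adjustment over all genes tested). Against nerve it was -8.99 ± 0.77 (adjusted p = 9.15e-06, edgeR). Fitted folds this size rest on a near-empty MPNST group, where 4 counts were found in all 6 libraries together. Within the first and the last 9 columns of the table, which hold 3 libraries of each group and which no label calls batches, the log2 change was -8.66 and -8.39 against neurofibroma and -9.22 and -8.83 against nerve.

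Of 6 markers of sensory neurons, 4 were called lower in MPNST in both comparisons. Over all genes 16.8% were called lower against neurofibroma and 18.4% against nerve. The 6 markers summed to 8.73, 3.002, 7.16, 3.43, 1.66 and 1226 CPM in MPNST 1 to 6, against 1932 to 3134 CPM in neurofibroma and 1303 to 2936 CPM in nerve. None was at 0 throughout MPNST, but the nociceptor channel gene Scn10a reached at most 1.14 CPM there, against 392 to 719 CPM in neurofibroma and 259 to 805 CPM in nerve. In MPNST 6 the sum came from Prph at 688 CPM and Isl1 at 536 CPM, genes that sympathetic neurons also express, and Hoxd1 had 0 counts there too. The part of these neurons in the Hoxd1 levels was not tested. Haglr, a noncoding RNA gene beside Hoxd1, was lower too. Haglr lay between 0 and 0.558 CPM in MPNST, between 4.77 and 7.41 CPM in neurofibroma and between 4.39 and 8.75 CPM in nerve, and its log2 change was -5.41 ± 0.89 in MPNST against neurofibroma (adjusted p = 0.000733, edgeR) and -5.59 ± 0.91 against nerve (adjusted p = 0.000613, edgeR). The libraries were stranded per the labels, but the strand setting of the counting is not given in the sources used here, so reads of neighbouring or opposite genes in a cluster may have been split between them.

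Other HoxD genes were higher in several MPNST. Hoxd4, which in mouse marks the hindbrain and the neck, had 148, 12, 81, 331, 139 and 12 counts in MPNST 1 to 6, against 10, 12, 21, 15, 22 and 1 in neurofibroma 1 to 6 and 35, 51, 13, 17, 5 and 2 in nerve 1 to 6. MPNST 2 and 6 lay within the range of the other groups. The log2 change of Hoxd4 was 3.19 ± 0.77 in MPNST against neurofibroma (adjusted p = 0.00624, edgeR) and 2.57 ± 0.81 against nerve (adjusted p = 0.0211, edgeR). In the first and last 9 columns it was 3.37 and 2.998 against neurofibroma, the second not called (adjusted p = 0.186, edgeR), and 2.14 and 3.33 against nerve, neither called. Hoxd8, a trunk gene, had 301, 31, 186, 876, 312 and 46 counts in MPNST 1 to 6, against 52 to 85 in neurofibroma and 37 to 166 in nerve. MPNST 1, 3, 4 and 5 again lay above the other groups per library total, and its log2 change was 2.12 ± 0.56 against neurofibroma (adjusted p = 0.0101, edgeR). Against nerve it was 1.62 ± 0.59 (adjusted p = 0.0405, edgeR), a call that ended when any of 9 single libraries was left out, namely MPNST 1, 3, 4 or 5 or nerve 1, 3, 4, 5 or 6. Without the filter on low counts Hoxd8 was not called against nerve. In the first and last 9 columns its log2 change was 2.64 and 1.61 against neurofibroma and 1.54 and 1.63 against nerve, none of them called.

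Hoxd9 was not called. It averaged 1.68 ± 1.38 CPM in MPNST, against 0.748 ± 0.202 CPM in neurofibroma and 0.952 ± 0.344 CPM in nerve (SD, n = 6 each). Its log2 change was 1.23 ± 0.47 against neurofibroma (adjusted p = 0.0538, edgeR) and 0.86 ± 0.50 against nerve (adjusted p = 0.172, edgeR). The first was called in 8 of 23 alternatives, DESeq2 and limma-voom among them, and the second in 3 of 24. Hoxd3 had 82 counts in MPNST 4 and 18 in MPNST 5, with 0 to 5 in the other MPNST, against at most 9 in neurofibroma and at most 30 in nerve. Hoxd10, a lumbar gene, had 12 counts in MPNST 1 and in MPNST 5 and at most 3 in the other MPNST, against at most 1 count in any neurofibroma or nerve library. Without a filter on low counts Hoxd10 was called higher in MPNST than nerve (log2 change 3.43 ± 1.08, adjusted p = 0.0344, edgeR) but not than neurofibroma (2.64 ± 0.97, adjusted p = 0.0696, edgeR), and the first call ended without MPNST 1 or 5 or nerve 3, 4, 5 or 6. MPNST 4, which had the highest Hoxd3, Hoxd4 and Hoxd8 levels of the 18 libraries, had 0 to 7 counts of every HoxA and HoxC gene.

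**Figure D3:**
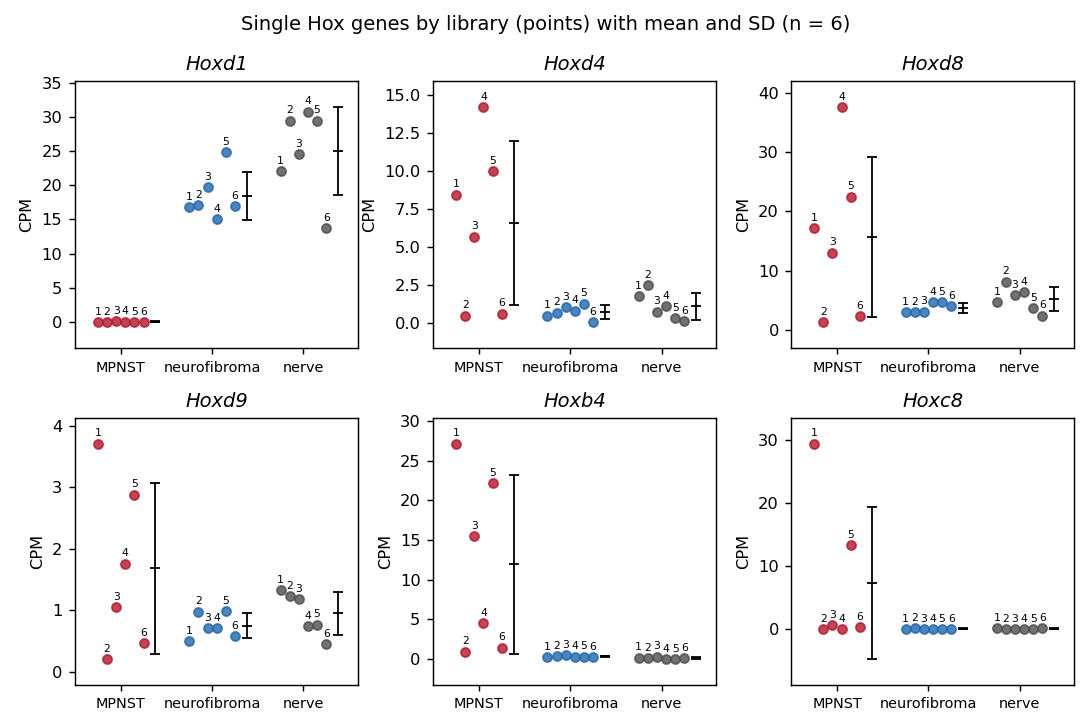
Points are CPM in single libraries, numbered by library, for 6 Hox genes, with the black mark and bars at the mean and SD of 6 libraries and MPNST at the left of each panel. Hoxd1 is at or near 0 in all MPNST, while Hoxb4 and Hoxd8 spread from near the other groups in MPNST 2 and 6 to 27.2 and 37.6 CPM in MPNST 1 and 4.

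In HoxB, Hoxb4 was the gene that passed the filter on low counts. It did so only through its MPNST counts and was filtered out in neurofibroma against nerve. Hoxb4, known for hindbrain patterning and blood stem cells, had 476, 22, 220, 106, 308 and 27 counts in MPNST 1 to 6, against 5, 6, 9, 5, 5 and 4 in neurofibroma 1 to 6 and 3, 2, 5, 0, 0 and 1 in nerve 1 to 6. Every MPNST library, MPNST 2 and 6 included, lay above every library of the other groups. It averaged 11.9 ± 11.3 CPM in MPNST, against 0.314 ± 0.0792 CPM in neurofibroma and 0.102 ± 0.112 CPM in nerve (SD, n = 6 each). The log2 change was 5.30 ± 0.76 in MPNST against neurofibroma (adjusted p = 0.00033, edgeR) and 6.81 ± 1.03 against nerve (adjusted p = 0.000397, edgeR). Within the first and last 9 columns it was 4.97 and 5.65 against neurofibroma and 5.88 and 8.796 against nerve, each called after the filter. Without the filter the log2 change was 5.18 against neurofibroma and 6.67 against nerve, called in both with all libraries. Within the last 9 columns the unfiltered fit did not call Hoxb4 against neurofibroma (adjusted p = 0.0515, edgeR).

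The filter on low counts (edgeR's filterByExpr) left 5 of the 39 Hox genes to be tested in each comparison with MPNST, namely Hoxb4, Hoxd1, Hoxd4, Hoxd8 and Hoxd9. In MPNST against neurofibroma 3 of the 39 were called higher and 1 lower, and the filter left 34 untested. Over all genes tested 42.0% were called, 25.3% higher and 16.8% lower, and the median log2 change was 0.22. In MPNST against nerve 3 were called higher and 1 lower, where 46.0% of all genes tested were called, 27.6% higher and 18.4% lower, with a median log2 change of 0.22. Both comparisons share the MPNST libraries, so these counts are not separate evidence. The remaining Hox genes, at a few counts in most libraries, were tested in a second fit without the filter, whose values are used below for genes that the filter removed. It called 21 of 35 tested Hox genes higher and 1 lower against neurofibroma, where 21.2% of 34491 genes were called, 11.3% higher and 9.92% lower. Against nerve it called 22 of 36 higher and 1 lower, where 23.8% of 34204 genes were called, 12.8% higher and 11% lower. Within the first and the last 9 columns alone, with 3 libraries a group, the unfiltered fit called 4 of 32 and 1 of 33 Hox genes against neurofibroma, where 9.87% and 2.20% of all genes were called. Against nerve it called 4 of 32 and 2 of 34, where 13.1% and 1.80% of all genes were called. The Hox shares within the first 9 columns, and that against neurofibroma within the last 9, thus lay near the shares of all genes.

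**Figure D4:**
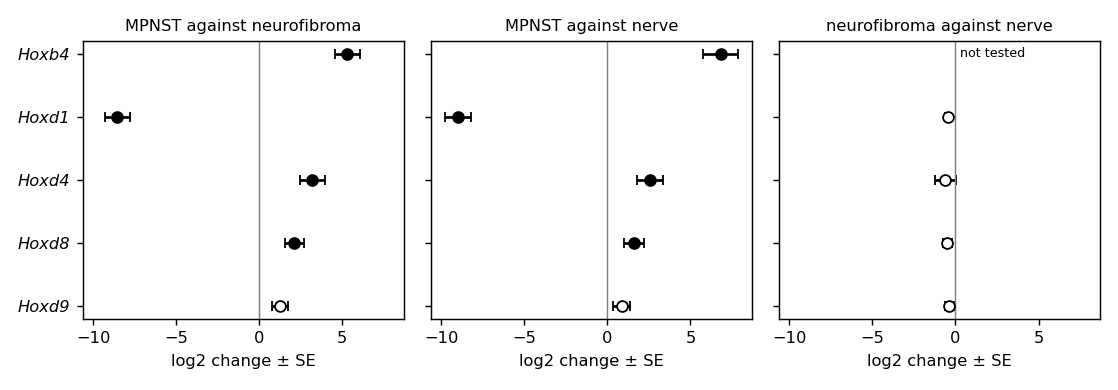
Points are log2 changes with SE bars from the filtered edgeR fits for the Hox genes tested, with filled points called at an adjusted p below 0.05 and open points not called. Hoxd1 lies at -8.54 and -8.99 in the 2 comparisons with MPNST, Hoxb4 at 5.30 and 6.81, and the 4 genes tested in neurofibroma against nerve lie near 0.

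The other HoxB genes were low outside MPNST. Without the filter, Hoxb2 to Hoxb9 were all called higher in MPNST against neurofibroma and against nerve, 8 of 10 HoxB genes, while Hoxb1 and Hoxb13 had at most 1 count in any library. Hoxb3, a hindbrain gene, had 131, 10, 45, 109, 165 and 8 counts in MPNST 1 to 6, against at most 1 count in every neurofibroma library and 0 in all 6 nerves. It was at least 157.6-fold higher in MPNST than nerve, taking a floor of 3 counts over the nerve group. Its log2 change against neurofibroma was 6.62 ± 0.95 (adjusted p = 0.000532, edgeR). Hoxb7 had 94, 3, 10, 25, 156 and 15 counts in MPNST 1 to 6, against at most 2 in neurofibroma and at most 8 in nerve. Hoxb6 had 68, 1, 14, 19, 115 and 14 counts in MPNST 1 to 6, against 1 count in 1 neurofibroma and 0 in nerve, a log2 change of 7.11 ± 1.18 against neurofibroma (adjusted p = 0.00131, edgeR). Hoxb2, which patterns the hindbrain, had 115, 0, 69, 16, 40 and 28 counts in MPNST 1 to 6, against at most 2 in neurofibroma and 0 in nerve. Hoxb5 had 28, 0, 11, 5, 98 and 6 counts and Hoxb8 had 36, 0, 5, 14, 34 and 18 counts in MPNST 1 to 6, against at most 1 count of either elsewhere. MPNST 2 was thus near 0 for HoxB genes other than Hoxb3 and Hoxb4. Hoxb9, a thoracic gene, was uneven among the tumours, with 31, 0, 0, 0, 105 and 21 counts in MPNST 1 to 6, against at most 2 elsewhere, and its call against neurofibroma ended without MPNST 5 or any 1 neurofibroma, and that against nerve without nerve 2.

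In HoxA, the 7 genes from Hoxa3 to Hoxa10 were called higher in MPNST against each other group in the unfiltered fit, out of 11. They were carried by MPNST 1, 3 and 5, with MPNST 6 at a lower level. Hoxa3, which shapes the third pharyngeal arch, had 59, 2, 55, 4, 44 and 7 counts in MPNST 1 to 6, against 0 in every neurofibroma and at most 3 in nerve, at least 65.9-fold higher than in neurofibroma. Hoxa5, a neck and lung gene, had 101, 1, 136, 7, 68 and 9 counts in MPNST 1 to 6, against at most 2 in neurofibroma and 0 in nerve. Its log2 change against neurofibroma was 6.28 ± 1.36 (adjusted p = 0.00625, edgeR), and it was at least 118.2-fold higher than in nerve. Hoxa7 had 110, 0, 139, 4, 96 and 15 counts in MPNST 1 to 6, against at most 3 in neurofibroma and 0 in nerve, and was at least 134.4-fold higher than in nerve. Hoxa9, known for its part in leukaemia, had 16, 0, 211, 0, 24 and 6 counts in MPNST 1 to 6, against at most 1 in each other library. Its neighbour Hoxa10 had 1, 0, 82, 0, 26 and 2 counts in the same order, so both were highest in MPNST 3. Hoxa4 peaked there too, with 11, 1, 32, 2, 6 and 0 counts in MPNST 1 to 6, against at most 1 elsewhere. The call of Hoxa9 against neurofibroma ended without neurofibroma 6 (adjusted p = 0.0543, edgeR). Hoxa6 was called on at most 6 counts in any library, and its calls ended without MPNST 1, 3 or 5 or any 1 library of the other group. Those of Hoxa10 ended without MPNST 3 in both comparisons, without MPNST 1 or 5 or any 1 neurofibroma against neurofibroma, and without nerve 2, 3, 5 or 6 against nerve. Hoxa2, a gene of the second pharyngeal arch, had 18, 1, 14, 1, 14 and 0 counts in MPNST 1 to 6, against at most 3 elsewhere, and was not called (adjusted p = 0.0817 against neurofibroma and 0.0857 against nerve, edgeR).

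In HoxC, Hoxc4, Hoxc6, Hoxc8 and Hoxc9 were called higher in MPNST against neurofibroma in the unfiltered fit, and the same 4 and Hoxc10 against nerve. Hoxc6, used at forelimb level, had 193, 2, 75, 3, 85 and 14 counts in MPNST 1 to 6, against 0 in all 6 neurofibromas and 1 count in 1 nerve, and was at least 139.5-fold higher than in neurofibroma. All 6 MPNST lay above all 12 other libraries in Hoxc6. Hoxc8, used at the lower neck and upper chest, had 515, 0, 9, 0, 184 and 4 counts in MPNST 1 to 6, against at most 2 in neurofibroma and at most 1 in nerve. The log2 change of Hoxc8 was 7.98 ± 1.99 against neurofibroma (adjusted p = 0.013, edgeR) and 7.93 ± 1.94 against nerve (adjusted p = 0.0107, edgeR), with MPNST 1 and 5 holding nearly all of its counts. Without neurofibroma 2 the first of these was not called (adjusted p = 0.0511, edgeR). Hoxc9 followed Hoxc8, with 99, 0, 5, 0, 82 and 2 counts in MPNST 1 to 6, against at most 1 elsewhere, and its call against neurofibroma ended without MPNST 1 or 5 or any 1 neurofibroma. Hoxc4 had 93, 0, 87, 4, 36 and 16 counts in MPNST 1 to 6, against 0 in neurofibroma and at most 1 in nerve. Hoxc5 had 67, 0, 23, 0, 11 and 3 counts in MPNST 1 to 6, against at most 5 elsewhere, and was not called (adjusted p = 0.0528 against neurofibroma and 0.0535 against nerve, edgeR). The HoxC genes were thus at 0 to 4 counts in MPNST 2 and 4. Hoxc10, another lumbar gene, had 5, 0, 0, 0, 81 and 2 counts in MPNST 1 to 6, so the call against nerve (log2 change 5.74 ± 1.78, adjusted p = 0.0326, edgeR) rests on MPNST 5 and ended without any 1 nerve library as well. Without MPNST 5 the log2 change was 2.26 (adjusted p = 0.192, edgeR).

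By position number, the highest detected HoxB gene was Hoxb9 in MPNST 1, 5 and 6, Hoxb8 in MPNST 4, Hoxb7 in MPNST 3 and Hoxb4 in MPNST 2. The highest detected HoxC gene was Hoxc10 in MPNST 5, Hoxc9 in MPNST 1 and Hoxc6 in MPNST 3 and 6. Some of these stops depend on the cut of 10 counts. MPNST 3 had 9 counts of Hoxc8 and 5 of Hoxb8, and MPNST 2 held 93 Hox counts in all. Thus detection at this cut stopped at different numbers in different tumours. None went past number 10: the 9 Hox genes numbered above 10, known from the hindmost trunk, limbs and genital region, reached at most 7 counts in any library, and Hoxc12, Hoxd12 and Hoxd13 were at 0 in all 18. Groups did not overlap for 5 Hox genes higher in MPNST than neurofibroma (Hoxa3, Hoxb3, Hoxb4, Hoxb7 and Hoxc6), against 1.4% of all genes tested without the filter, and for 1 lower (Hoxd1), against 9.19%. They did not overlap for 5 higher in MPNST than nerve (Hoxa5, Hoxb3, Hoxb4, Hoxb6 and Hoxc6), against 1.73%, and for 1 lower (Hoxd1), against 8.86%. For Hoxa3, Hoxa5, Hoxb6, Hoxb7 and Hoxc6 the separation rests on 1 to 3 counts in MPNST 2, below the cut of 10. Without MPNST 2, 3 and 6, 18 Hox genes did not overlap in each comparison, of which Hoxd1 was the 1 lower. With the same 3 MPNST left, the groups also did not overlap for 17% of all genes higher and 16.5% lower against neurofibroma, and for 17.7% higher and 16% lower against nerve.

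Neurofibroma and nerve both held HoxD genes at 10 counts or more and none of the other clusters. None of the 4 Hox genes tested was called in edgeR, which called 13.9% of 16464 genes, 7.94% up and 6% down, and 1 had an unadjusted p below 0.05. Without the filter 0 of 30 were called, against 4.33% of all genes, 2.71% up and 1.62% down, and 5 had an unadjusted p below 0.05. Hoxd1 averaged 18.4 ± 3.47 CPM in neurofibroma and 25.0 ± 6.45 CPM in nerve (SD, n = 6 each), a log2 change of -0.45 ± 0.19 (adjusted p = 0.124, edgeR). This missed the threshold with all libraries but passed it without nerve 6, at a log2 change of -0.58 (adjusted p = 0.0137, edgeR). After the filter it also passed in limma-voom with sample weights (-0.55, adjusted p = 0.0212, limma-voom), and DESeq2 called 0. Without the filter limma-voom called Hoxb4 and not Hoxd1. Within the first and last 9 columns the log2 change of Hoxd1 was -0.50 and -0.44. Hoxd8 averaged 3.75 ± 0.815 CPM in neurofibroma and 5.22 ± 2.04 CPM in nerve, and Hoxd4 0.740 ± 0.431 CPM in neurofibroma and 1.12 ± 0.901 CPM in nerve, with overlapping libraries (SD, n = 6 each). No Hox gene separated all 6 neurofibromas from all 6 nerves, against 2.06% of all genes tested without the filter for higher and 1.13% for lower.

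Noncoding genes inside the clusters were mostly near 0, and 2 of the 17 in the table passed the filter. Hoxb3os, transcribed beside Hoxb3, lay at 12.4, 0.0846, 3.58, 0.730, 4.97 and 0.786 CPM in MPNST 1 to 6, against 0 to 0.153 CPM in neurofibroma and 0 in every nerve. Hotairm1, at the low-number end of HoxA, lay at 3.71, 0, 3.72, 0.0859, 2.23 and 0.262 CPM in MPNST 1 to 6, against 0 to 0.408 CPM in neurofibroma and 0 to 2.03 CPM in nerve, where nerve 6 was the highest. Both were therefore highest in MPNST 1, 3 and 5, the tumours with most HoxA and HoxB transcripts, and were not tested after the filter. Hotair and Hottip, at the high-number ends of HoxC and HoxA, were listed at 0 in all 18 libraries. The list of Evx and ParaHox genes, the closest relatives of the clusters, had 0 of 8 past the filter.

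The TALE homeodomain proteins of the Pbx, Meis and Pknox families are the partners with which Hox proteins bind DNA. Of 9 tested, 2 were higher and 1 lower in MPNST in both comparisons, near the shares over all genes, with a median log2 change of -0.36 against neurofibroma and -0.61 against nerve. Meis1 rose by 3.32 ± 1.001 on the log2 scale against neurofibroma (adjusted p = 0.0192, edgeR), but at 5.19, 69.2, 4.002, 17.9, 10.4 and 252 CPM in MPNST 1 to 6 it was highest in MPNST 6 and 2, the libraries with the fewest Hox counts. Pknox1 averaged 30.1 ± 21.7 CPM in MPNST, against 12.4 ± 1.91 CPM in neurofibroma (log2 change 1.41 ± 0.28, adjusted p = 0.00241, edgeR). Pbx3 averaged 12.6 ± 4.94 CPM in MPNST, against 22.5 ± 1.93 CPM in neurofibroma (-0.61 ± 0.19, adjusted p = 0.024, edgeR). In neurofibroma against nerve 1 of 9, Meis2, was lower (-0.51 ± 0.12, adjusted p = 0.0182, edgeR), beside 6% of all genes.

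Several genes for the complexes that act on Hox chromatin were higher in MPNST, and the counts below stand beside 25.3% of all genes higher and 16.8% lower against neurofibroma, and 27.6% and 18.4% against nerve. Of 12 genes of Polycomb repressive complex 2, which places the silencing mark on histone H3, 8 were higher and 1 lower in MPNST against neurofibroma, with a median log2 change of 0.91 against 0.22 over all genes. Against nerve 7 were higher and 1 lower. The methyltransferase gene Ezh2 had 48.5, 8.75, 30.1, 53.1, 112 and 129 CPM in MPNST 1 to 6, against 7.53 to 19.9 CPM in neurofibroma and 3.51 to 8.32 CPM in nerve, a log2 change of 2.35 ± 0.39 against neurofibroma (adjusted p = 0.000814, edgeR). Eed, a core subunit, rose by 1.37 ± 0.16 (adjusted p = 7.81e-05, edgeR), while Ezh1, the alternative to Ezh2, fell by 0.73 ± 0.23 (adjusted p = 0.0225, edgeR). Ezh2 was high both in MPNST 5, which had the highest summed Hox level, and in MPNST 6, which had the second lowest. Of 11 genes of Polycomb complex 1, 5 were higher and none lower against neurofibroma, with Rnf2 at 1.25 ± 0.20 on the log2 scale (adjusted p = 0.000698, edgeR) and Bmi1 at 1.03 ± 0.17 (adjusted p = 0.000839, edgeR). Against nerve 4 were higher and none lower. Of 15 trithorax and H3K27 demethylase genes, which oppose silencing, 7 were higher and 1 lower against neurofibroma and 5 higher and 1 lower against nerve. Against nerve, the higher shares of Polycomb complex 1 and of the trithorax list were near that of all genes. Kmt2d rose by 1.05 ± 0.15 (adjusted p = 0.00038, edgeR) and Rbbp5 fell by 0.53 ± 0.13 (adjusted p = 0.00677, edgeR) against neurofibroma. In neurofibroma against nerve, Ezh2 rose by 1.18 ± 0.27 (adjusted p = 0.0161, edgeR), with no other of the 12 called. Cbx7 of Polycomb complex 1 was lower there (-0.47 ± 0.12, adjusted p = 0.0226, edgeR), as were Kmt2a and Rbbp5 of the trithorax list, while Dpy30 was higher. Over all genes 7.94% were higher and 6% lower in neurofibroma against nerve.

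Retinoic acid is a vitamin A product that switches on low-numbered Hox genes in the embryo. Of 15 tested genes of its pathway, 4 were higher and none lower in MPNST against neurofibroma, and 5 and none against nerve. These counts were near the shares of all genes called higher, 25.3% against neurofibroma and 27.6% against nerve. The receptor gene Rara had 44.3, 9.34, 35.9, 43.4, 45.9 and 37.8 CPM in MPNST 1 to 6, against 10.1 to 15.6 CPM in neurofibroma and 5.31 to 9.23 CPM in nerve, a log2 change of 1.70 ± 0.18 against neurofibroma (adjusted p = 4.55e-05, edgeR). MPNST 2 lay below the other MPNST. In neurofibroma against nerve 4 of the 15 were higher and none lower, beside 7.94% of all genes higher, among them the receptor gene Rxrg (1.07 ± 0.18, adjusted p = 0.00459, edgeR) and the binding protein gene Crabp1 (1.37 ± 0.23, adjusted p = 0.00464, edgeR).

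Other homeobox genes known from the head were for the most part low, with 9 of 24 past the filter against neurofibroma and 3 of them higher and 2 lower in MPNST. Against nerve 3 of 7 were higher and 1 lower, and 0 of 8 were called by edgeR in neurofibroma against nerve. Over all genes 42.0%, 46.0% and 13.9% were called in these 3 comparisons, so the counts of this list were near those shares. Msx1, a gene of facial mesenchyme and limb buds, had 22.1, 1.395, 12.6, 11.1, 20.7 and 0.262 CPM in MPNST 1 to 6, against 0.523 to 2.94 CPM in neurofibroma and 0.406 to 1.19 CPM in nerve. Its log2 change was 3.09 ± 0.79 against neurofibroma (adjusted p = 0.0087, edgeR). Dlx3 fell by 4.48 ± 0.55 against neurofibroma (adjusted p = 0.000113, edgeR), to at most 0.157 CPM in MPNST. Of genes of limb and trunk fields, 1 of 5 tested, Pax9, was called higher against neurofibroma (5.97 ± 2.12, adjusted p = 0.0387, edgeR), beside 25.3% of all genes, and its level came from MPNST 2 at 228 CPM, with at most 15.5 CPM in the other MPNST and 3.02 CPM in any neurofibroma. Against nerve 2 of 5, Pax9 and Tbx15, were higher, beside 27.6% of all genes. In neurofibroma against nerve 1 of 5, Tbx3, was lower (-0.80 ± 0.21, adjusted p = 0.0257, edgeR), beside 6% of all genes.

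The nearest coding genes outside the clusters, 2 on each side and chosen after the Hox values were seen, are given for comparison. Of 15 tested, 3 were higher and 1 lower in MPNST against neurofibroma, where 42.0% of all genes were called, and the median log2 change was 0.07. Snx10, beside HoxA, fell by 1.26 ± 0.22 (adjusted p = 0.00103, edgeR), and Atp5g2, beside HoxC, rose by 1.05 ± 0.17 (adjusted p = 0.000732, edgeR). Between neurofibroma and nerve 0 of 14 were called by edgeR, where 13.9% of all genes were called.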

How the data were processed

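Stranded poly(A) libraries of 18 samples were made with a KAPA kit, per the labels' protocols. The authors deposited estimated counts per gene, without further normalization. The submitters' processing notes name FastQC, Salmon 1.4.0, DESeq2 and the build GRCm39. The sources used here give no annotation release, strand setting or method of summing to genes. Counts of near-identical or overlapping Hox transcripts are therefore uncertain. Counts were rounded, and each pair of groups was fitted by a two-sided quasi-likelihood test (R 4.3.3, edgeR 4.0.16) after filterByExpr and TMM, with Benjamini-Hochberg adjustment over all genes tested and calls below 0.05. The fits were tested on simulated data. Alternatives included DESeq2 1.42.0 and limma-voom (limma 3.58.1). A gene was detected at 10 counts, where counting error is the limit on precision; the floor for a group at 0 was 3 counts, and it covers counting error only. Outlying libraries were sought on log2(CPM + 1). The members and the 9 gene lists and 10 marker lists (170 of 171 entries found) were chosen with earlier results of these data known. All Hox genes could be named, and of other lists the 2 with the smallest p per direction, except Hoxb3os, Hotairm1, Hotair, Hottip, Scn10a, Prph, Isl1 and Sox10, which, like the genes beside the clusters and the split by columns, were chosen after their values were seen. Sequences are RefSeq windows of GRCm38.p6, and their coordinates were not mixed with GRCm39.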

Additional observations from a re-analysis of the deposited data

Results flagged for a closer look

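In 31 sets of 6 libraries with a mean of at least 10 counts, 2 held a library far from the other 5 by Dixon's ratio on log2(CPM + 1), and chance flags about 5% of sets. Hoxa9 stood at 14.8 CPM in MPNST 3, with the other MPNST between 0 and 1.73 CPM. Hoxc10 stood at 5.83 CPM in MPNST 5, with the other MPNST between 0 and 0.285 CPM. MPNST 3 also held the summed skeletal muscle markers at 30275 CPM, and their part in the Hoxa9 level was not tested.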

How the results depend on the processing

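No paired analysis was possible because sample numbers within a group were given in accession order and pair nothing across groups. Hoxb4 higher and Hoxd1 lower in MPNST held in every filtered alternative that tested them. In these fits Hoxb4 passed the filter through its MPNST counts alone, and Hoxd1 through those of the other groups. Against neurofibroma the count of called Hox genes was 4; it was 22 without the filter, 9 without MPNST 2 and 6, 10 without MPNST 2, 3 and 6, and 4 to 8 with 1 library left out (8 without MPNST 2 and 7 without any 1 neurofibroma, where the filter passed more genes). Against nerve it was also 4; it was 23, 9, 10 and 3 to 7 in the same alternatives (7 without MPNST 2 or nerve 2), and 2 within the first 9 columns. Over all genes 6948 of 16537 were called against neurofibroma, but 10234 of 17280 without MPNST 2 and 6. Without MPNST 2, 3 and 6 it was 11247 of 17900. Against nerve these values were 7534 of 16384, 10419 of 17166 and 11118 of 17819. Without the filter, leaving out 1 library gave 16 to 26 Hox calls against neurofibroma and 18 to 26 against nerve. Over all genes these fits called 5228 of 34284 to 10486 of 34049 against neurofibroma. Against nerve they called 6086 of 34038 to 11225 of 33776. In every such fit 15 and 17 Hox genes were called. Calls that ended in at least 1 such fit were those of Hoxa6, Hoxa9, Hoxa10, Hoxb9, Hoxc8, Hoxc9 and Hoxd8 against neurofibroma, and of Hoxa6, Hoxa10, Hoxb9, Hoxc10, Hoxd4 and Hoxd10 against nerve (Hoxd4 without any 1 of MPNST 1, 3, 4 or 5 or nerve 1, 3, 4, 5 or 6). Within the first and last 9 columns the unfiltered counts were 4 and 1 against neurofibroma, and 4 and 2 against nerve, with 3 libraries a group. Hoxd4 was not called within the last 9 columns in either comparison, nor Hoxd8. Neurofibroma against nerve gave 1 call instead of 0 in limma-voom, without nerve 6 (0 to 1 over libraries left out) and without nerve 6 and neurofibroma 1, with and without the filter. The gene called was Hoxd1, except in the unfiltered limma-voom fit, where it was Hoxb4. Within the last 9 columns its log2 changes turned to 0.37 for Hoxd4, 0.037 for Hoxd8 and 0.17 for Hoxd9, none called; the cause was not tested. At 1 count or more, 35 Hox genes were detected in MPNST, 22 in neurofibroma and 22 in nerve, and at 30 counts 24 in MPNST, 2 in neurofibroma and 4 in nerve. Genes whose groups did not overlap numbered 18 instead of 6 without MPNST 2, 3 and 6, in both comparisons with MPNST, where the share over all genes also rose. In the unfiltered fit against neurofibroma, upper-quartile scaling moved the median log2 change of all genes to 0.46, against 0.25 with TMM, and the calls to 5386 higher and 2872 lower, against 3901 and 3420. At a few counts per library, an absent Hox transcript was not distinguishable from a rare one.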
